A study of Arabidopsis thaliana with 4 samples.

Results

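Of 1958 genes listed as bound by the floral regulator AGAMOUS (AG) in young Arabidopsis thaliana flowers, 148 carried peaks of different score in at least 2 of 5 regions along the gene, which is 7.56% of the list. The 5 regions are the stretches 2000 to 3000 bp, 1000 to 2000 bp and 0 to 1000 bp upstream of the 5′ end, the gene itself, and the first 1000 bp beyond the 3′ end. The genes were chosen by the authors' deposited peak scores: a gene was taken as having several AG sites when the highest scores of at least 2 regions were above 0 and not equal. A score is the authors' Poisson score of a peak, given here as deposited. Since the scores chose the genes, they are given as a description and carry no test.

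Chromatin immunoprecipitation and sequencing (ChIP-seq) with the anti-GFP antibody AB290 was done on inflorescences of AG-GFP AP1-GR ap1 cal plants, and on AP1-GR ap1 cal plants without the GFP-tagged protein as negative control, with 2 libraries in each group. All plants were in the Ler-0 background, about 4 weeks old, and carried the AP1-GR transgene, driven by the 35S promoter, in the ap1 cal double mutant. In that line 10 µM dexamethasone starts flower formation at many meristems at the same time, and tissue of both groups was taken 4 days later, at about floral stages 4 to 5. The labels do not say what drives AG-GFP, whether an endogenous AG copy remained, or whether plants were pooled. The control libraries were matched by number to those of AG-GFP, and the first of them was also used for another study. The deposited tables hold 1 score per peak or region for the series and none per library, so no replicate error can be given, and the sequencing depth is unknown.

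AG is the MADS-domain transcription factor that specifies stamens and carpels and ends the activity of the floral meristem. MADS-domain proteins bind short A/T-rich DNA elements called CArG boxes as dimers, and floral MADS proteins can join into tetramers that contact a pair of DNA sites with a loop between them. Genes with more than 1 site are therefore of interest for how the sites are spaced and which regions they occupy. The peak tables give positions of enrichment and hold no information on contacts between sites.

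Most of the 148 genes had exactly 2 scored regions (133 genes). A further 15 genes had 3, which is 0.766% of all listed genes, and none had 4 or 5. In 72 genes (48.6%) every scored region lay upstream of the 5′ end, where 3 of the 5 regions are. Upstream and intragenic peaks without a downstream one were found in 34 genes (23.0%), upstream and downstream peaks in 25 (16.9%), and intragenic and downstream peaks in 15. The remaining 2 genes had a peak in all 3 places. The most frequent combination was the farthest with the nearest upstream region (27 genes), followed by the 2 nearer upstream regions (23 genes) and the 2 farther ones (18 genes).

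**Figure D1:**
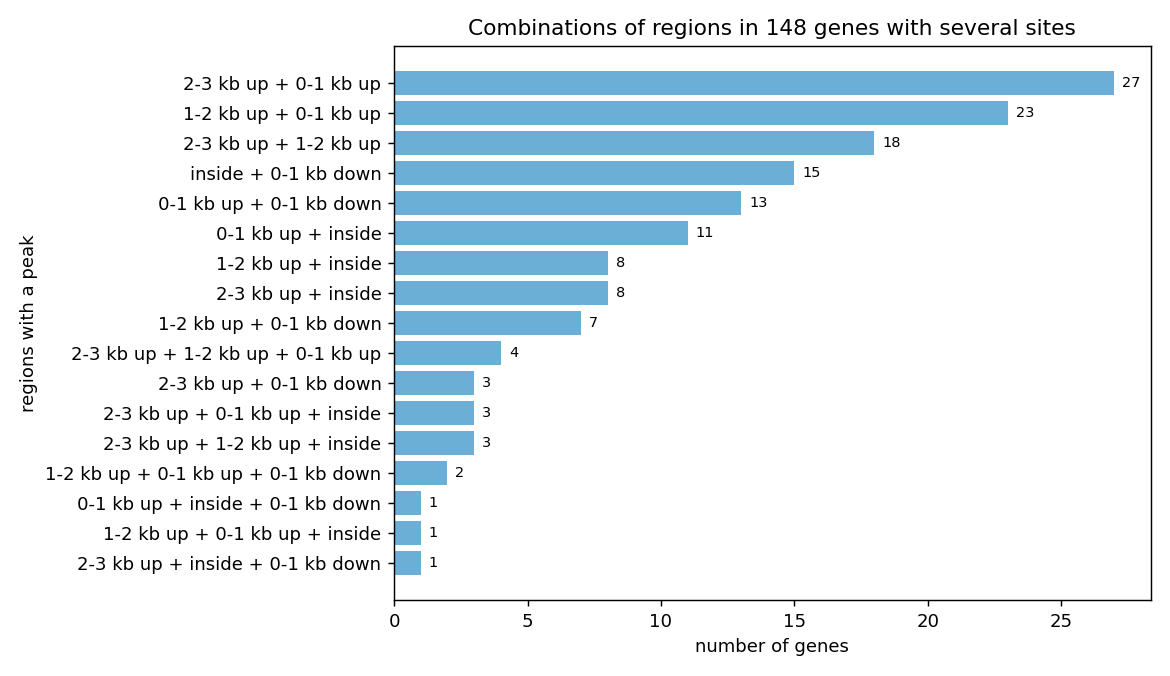
Number of genes (x axis) for each combination of scored regions (y axis) among the 148 genes with several sites. The 3 pairs of upstream regions lead with 27, 23 and 18 genes, and combinations of 3 regions hold 1 to 4 genes each.

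Peaks within 1000 bp upstream were listed for 85 of these genes (57.4%), peaks 1000 to 2000 bp upstream for 66 (44.6%) and peaks 2000 to 3000 bp upstream for 67 (45.3%). Inside the gene 51 had a peak (34.5%), and 42 (28.4%) had one downstream. Among targets with 1 score, the shares were 33.4, 17.2, 17.2, 13.7 and 18.6% in the same order of regions. Each of the 148 genes has at least 2 scored regions by rule, which raises its shares, so the sets are not on equal terms. Of the 13 genes left when only scores at or above the upper quartile of peaks (278.78) were counted, 15.4% had one within 1000 bp upstream. Among the 68 genes with exactly 2 upstream regions, the region nearer to the gene held the higher score in 40 and the farther one in 28. Where an upstream peak was joined by an intragenic one (27 genes with 2 regions), the intragenic peak was the higher in 17. The downstream peak was the higher in 14 of the 23 genes with 1 upstream and 1 downstream region.

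The peak positions of 144 genes could be traced in the peak list, and they belonged to 242 peaks, 17.0% of the 1421 in the list. The 2 highest peaks of a gene lay a median of 1726 bp apart (quartiles 972 and 2466 bp), and the distances ran from 238 to 7033 bp. Under 500 bp separated the peaks of 4 genes, and 3000 bp or more those of 26. The regions set part of this spread, since neighbouring regions are 1000 bp wide and a gene can be long. KNAT6, a class I homeobox gene of meristems and organ boundaries, had the widest pair, with 193.9 at 2000 to 3000 bp upstream and 238.98 inside the gene.

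**Figure D2:**
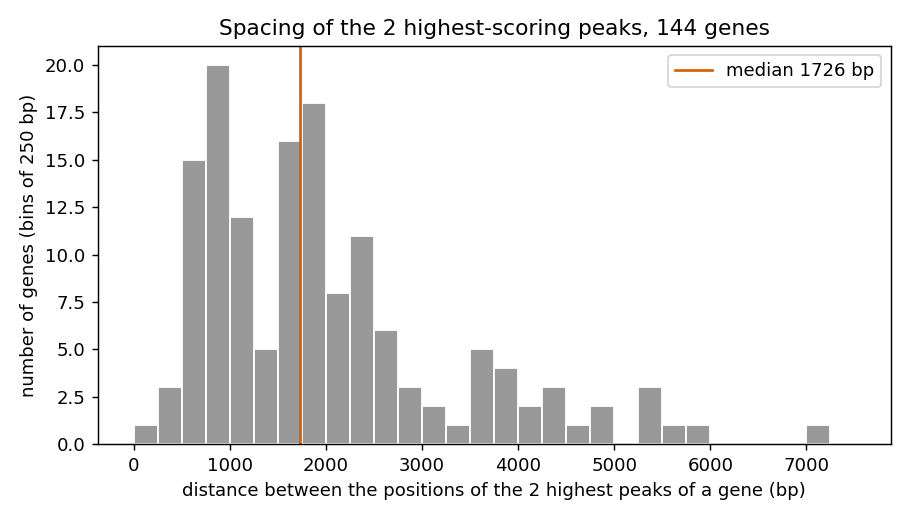
Distance in bp between the positions of the 2 highest peaks of a gene (x axis, equal bins) against the number of genes (y axis), for the 144 genes whose peaks could be traced. The line marks the median of 1726 bp, and 26 genes lie at 3000 bp or more.

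The gap between the 2 highest scores of a gene varied, and in 73 of the 148 genes the second was at least 50% of the highest. The median highest score was 294.06 and the median second score 97.13, with the second at a median of 49.3% of the highest (quartiles 24.0 and 71.2%). The second score was under 10% of the highest in 16 genes and at least 90% of it in 9. For comparison, the median score of all peaks in the list was 139.67, and 55 of the 148 genes (37.2%) had a second score at or above it, which is the number left if lower scores are ignored. The highest score was at or above it in 120 genes (81.1%), against 49.3% of the target genes with 1 score. This comparison uses the same scores as the choice of genes. It also sets the highest of 2 or 3 scores against a single score, which by itself raises the share in the 148 genes.

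**Figure D3:**
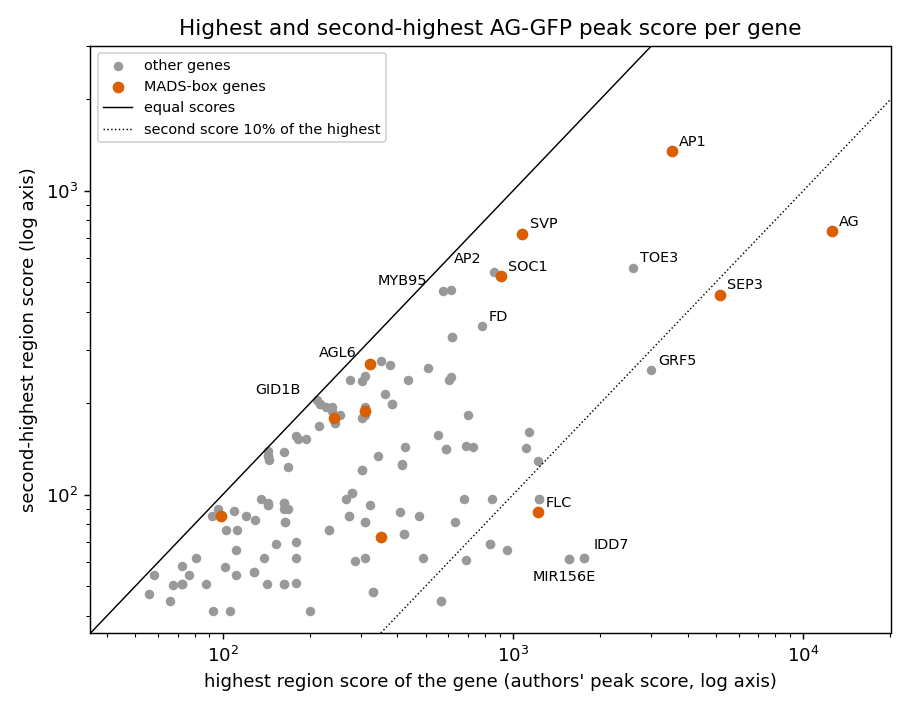
Highest (x axis) against second-highest region score (y axis) of the 148 genes, both as the authors' peak score on log axes, with MADS-box genes in orange. AP1 and AG have the highest second scores (1351.75 and 735.51), GID1B lies close to the line of equal scores, and SEP3, GRF5 and FLC lie below the line at 10%.

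MADS-box genes, the family of AG itself, often had several sites. Of 24 MADS-box genes listed as bound, 11 (45.8%) had scores in at least 2 regions, against 7.56% of all listed genes. The 11 became 4 with each peak given to its nearest target gene only, where 65 of 1151 targets (5.65%) had several sites. With scores at or above the upper quartile of peaks (278.78) the 11 became 5, where 13 of 510 targets (2.55%) had several sites. How many of the 24 MADS-box targets remained under either setting was not counted. The 11 were AG, AP1, SEP3, FLC, SVP, SOC1, FUL, AGL6, AGL19, AGL42 and TT16. Their median highest score was 908.49 and their median second score 269.46, and 7 of the 11 are also among the regulator lists described next. The intragenic region and the regions within 1000 bp and 2000 to 3000 bp upstream were scored in 7 of the 11 each, and none had a downstream peak. The other 13 MADS-box targets were scored in 1 region, within 1000 bp upstream in 7, inside the gene in 5 and 2000 to 3000 bp upstream in 1. AGL42, a gene related to SOC1, had 351.68 within 1000 bp and 72.68 at 1000 to 2000 bp upstream. TT16, which acts in the seed coat, had 308.23 within 1000 bp and 188.32 at 2000 to 3000 bp upstream. AGL19 had 98.32 inside the gene and 85.33 upstream, both below the median peak. The family as a group was chosen after the values were seen, as were AGL6, AGL19, AGL42 and TT16.

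Among the floral organ identity genes, 4 of 9 listed targets (44.4%) had several sites, against 7.56% of all targets. This list and the other regulator lists were chosen with earlier results of these data known, so their shares are a description. AG had 12585.03 inside the gene and 735.51 at 1000 to 2000 bp upstream. The TAIR10 coordinates of these peaks on chromosome 4 were 10382388 to 10388112 and 10381112 to 10381844. The intragenic peak was 5725 bp wide and its position lay 5302 bp from that of the upstream one. AP1, a floral meristem identity gene that also acts in sepals and petals, had 3529.42 inside the gene and 1351.75 at 2000 to 3000 bp upstream. These peaks were 4501 and 1403 bp wide and lay on chromosome 1 between 25982690 and 25987190 and between 25987723 and 25989125. The tagged AG is carried by the AG-GFP plants alone, so that binding at AG and reads of the added gene copy cannot be told apart. The AP1-GR copy is carried by both groups, and its part in the AP1 peaks was not tested. Without the 10 widest peaks of the list, which include both intragenic ones, AG and AP1 would each have had 1 scored region or fewer.

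SEP3, a MADS-box cofactor of the floral organ identity proteins, had 5153.51 at 2000 to 3000 bp upstream and 454.8 inside the gene, 3719 bp apart. Its intragenic peak lay on chromosome 1 from 8594946 to 8595246 and belonged to no other listed gene, whereas the upstream one was shared with AT1G24265. AP2, which acts against AG in the outer whorls, was bound upstream alone, with 859.87 and 541.79 at positions 970 bp apart on chromosome 4 (17398802 to 17399174 and 17397847 to 17398086). Both AP2 peaks belonged to AP2 alone. The other 5 targets of this group had a score in 1 region, which was within 1000 bp upstream for AP3 (5695.79), PI (2459.62), SHP2 (1495.24) and SEP2 (740.69) and inside the gene for SHP1 (65.95).

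Genes of floral meristems and flowering time had several sites in 8 of 18 targets (44.4%), against 7.56% of all targets. SOC1, a MADS-box gene that promotes flowering, was scored in 3 regions, with 908.49 within 1000 bp upstream, 524.78 at 2000 to 3000 bp upstream and 143.81 inside the gene. A further peak of 225.32 lay 653 bp from its highest one, giving 4 peaks along the gene. None of the 3 scored SOC1 peaks was shared with another listed gene. FUL, which acts in meristem identity and fruit growth, was also scored in 3 regions, with 241.9, 121.84 and 179.13 from 1000 to 2000 bp upstream into the gene.

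The flowering repressors SVP and FLC both had their highest peak 2000 to 3000 bp upstream. SVP had 1077.97 there and 722.17 inside the gene, so that the second was 67.0% of the first. FLC had 1223.64 there and only 87.5 within 1000 bp upstream, or 7.15% of the highest. The distal peak of FLC lay inside the neighbouring gene AT5G10150, which itself had several sites. Both SVP peaks were likewise shared, with AT2G22530, where they appear in reverse order as 722.17 at 2000 to 3000 bp and 1077.97 within 1000 bp upstream. Position does not show on which gene of such a pair a peak acts.

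FD, a bZIP partner of the flowering signal FT, had 781.31 at 2000 to 3000 bp upstream and 358.33 inside the gene, with peaks 1032 and 1099 bp wide. TOE3, an AP2-type gene, had 2589.52 at 1000 to 2000 bp and 559.48 at 2000 to 3000 bp upstream, 1288 bp apart. TEM1, a repressor of FT, had 1113.57 within 1000 bp upstream flanked by 142.98 farther upstream and 56.21 inside the gene. CLV1, the receptor kinase that restrains the stem cells of the meristem, had 88.08 and 109.48, both below the median peak. None of the peaks of FD, TOE3 and TEM1 was shared with another listed gene.

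The gene for LFY, the floral meristem identity factor, shows the edge of the rule. It had 58.19 in each of the 2 nearer upstream regions, from separate peaks of 87 and 198 bp whose positions were 1066 bp apart on chromosome 5. Since the scores were equal, LFY and GUT1, the gene that shares these peaks, were left out, and they were the only 2 genes left out for this reason. The genes just inside were AT4G37810 (139.51 and 143.09), AT1G05710 (54.43 and 58.19) and GID1B (210.92 and 205.2).

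**Figure D4:**
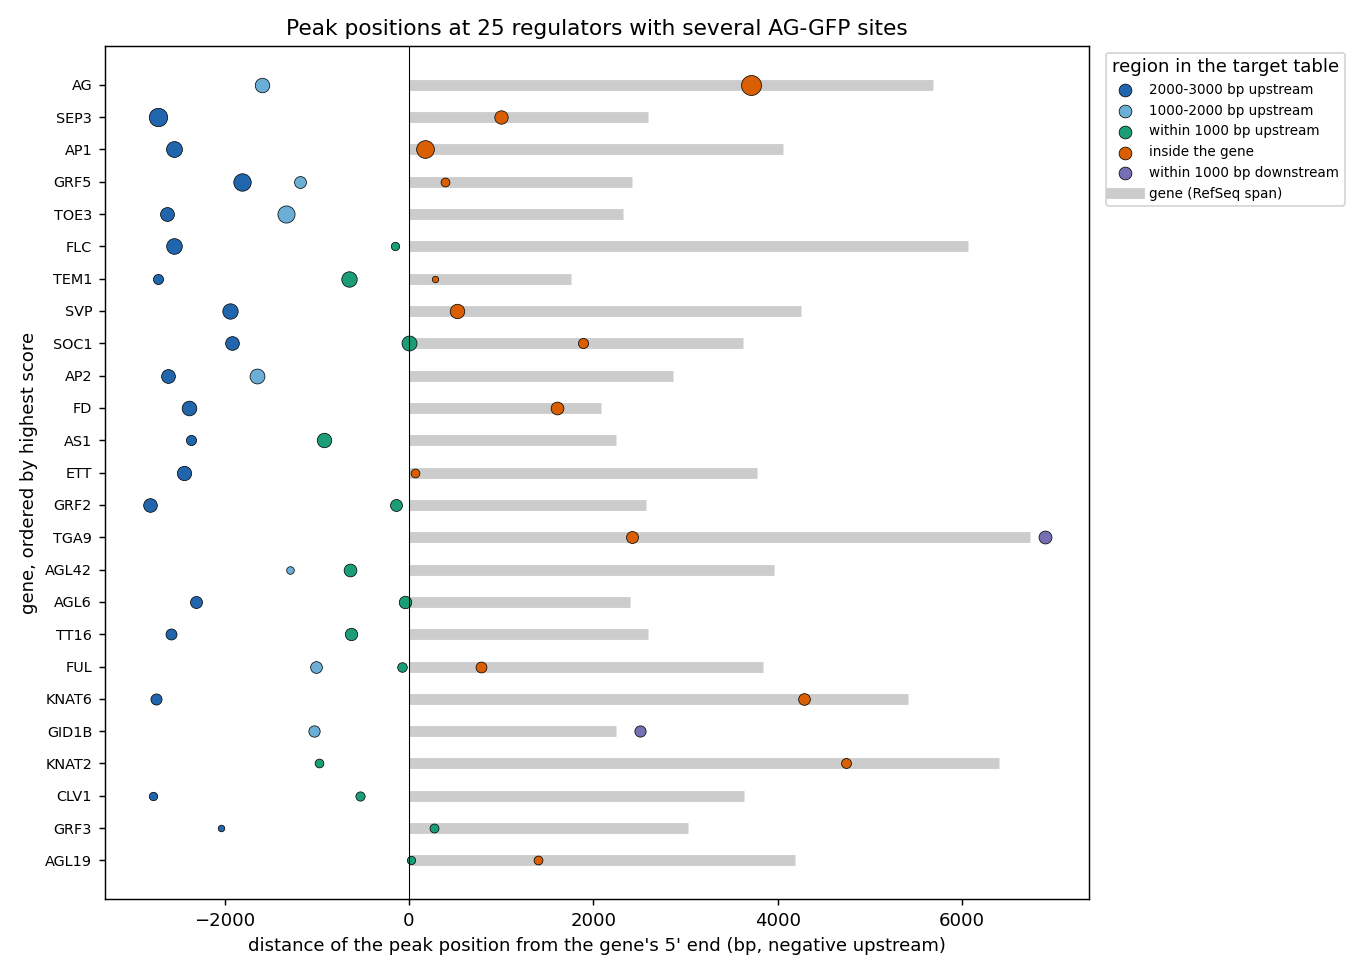
Peak positions (circles) relative to the RefSeq 5′ end of each gene (x axis, bp) for the 21 listed regulators with several sites and 4 further MADS-box genes (y axis, ordered by highest score), with the gene as a grey bar. Circle area grows with the logarithm of the score and colour gives the region in the authors' table. Gene ends there can differ from those drawn, so that a few circles lie outside their region, by at most 392 bp in all per gene. AG has its highest circle inside the gene, and SEP3 and FLC have theirs 2000 to 3000 bp upstream.

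Regulators of leaf and organ growth had several sites in 6 of 14 targets (42.9%), against 7.56% of all targets. GRF2, GRF3 and GRF5 encode growth-regulating factors, transcriptional activators of cell proliferation in leaves. GRF5 was scored in 3 regions, with 2992.89 and 257.11 upstream and 99.17 inside the gene, where the 2 upstream positions were 636 bp apart. GRF2 had 509.13 at 2000 to 3000 bp and 260.3 within 1000 bp upstream, and GRF3 had 57.95 and 101.69 in the same regions. AS1, a MYB gene that keeps KNOX homeobox genes off in leaves, had 727.5 within 1000 bp and 143.81 at 2000 to 3000 bp upstream.

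The class I KNOX genes KNAT2 and KNAT6 both combined an upstream with an intragenic peak at a long distance. KNAT2 had 97.13 upstream and 135.33 inside the gene, 5720 bp apart. BLH2 (SAW1), which encodes a BELL homeodomain protein of the group that pairs with KNOX proteins, had a like arrangement, with 215.62 at 1000 to 2000 bp upstream and 168.29 inside the gene, 5458 bp apart. BLH2 was chosen after its values were seen.

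Among listed genes of the reproductive organs, the share with several sites rested on 1 gene per list, too few to place against the 7.56% over all targets. For carpels and ovules it was 1 of 8 targets (12.5%), ETT, which encodes an auxin response factor that patterns the gynoecium, with 678.47 at 2000 to 3000 bp upstream and 97.13 inside the gene. For stamens and anthers it was 1 of 10 targets (10.0%), TGA9, a bZIP gene of anther development, with 266.42 inside the gene and 376.22 downstream, 4475 bp apart. No trichome gene among 7 targets had several sites, and 0 of 7 allows a share of up to 42.9%, taken as 3 counts of 7. Where any overlap of the whole peak counted, the trichome gene CPC and the carpel list gene CUC1 also had several sites. Of the 9 hormone targets 1 had several sites, the gibberellin receptor gene GID1B, with peaks on either side of the gene. Both GID1B peaks were shared with other listed genes. Differences between these groups were not tested. Over all 7 regulator lists, 21 of 75 targets (28.0%) had several sites. The 21 had a median highest score of 781.31, against 272.58 for the other 127 genes with several sites. The single target among 10 photosynthesis and housekeeping genes, TUA4, had 1 site.

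**Figure D5:**
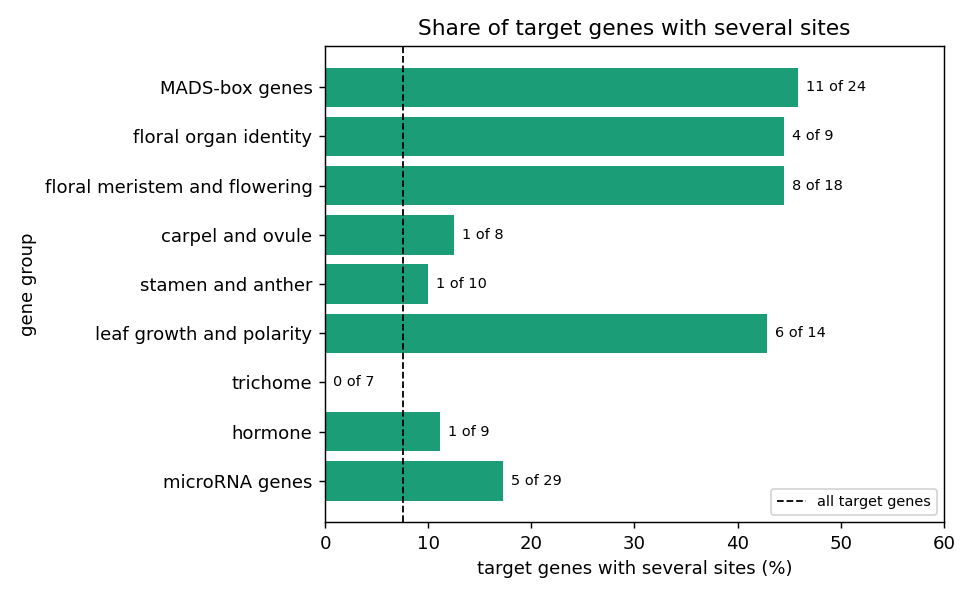
Share of target genes with several sites (x axis, percent) in each gene group (y axis), with counts beside the bars and the share of 7.56% over all target genes as a dashed line. MADS-box, floral organ identity, floral meristem and leaf growth genes lie between 42.9 and 45.8%, and trichome genes are at 0 of 7.

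MicroRNA genes made up 5 of the 148 genes, from 29 microRNA genes listed as bound (17.2%, against 7.56% of all targets). Their mature sequences, copied from the annotation in the authors' deposited table and written there with T, show which families they produce. Capitals mark bases 2 to 8, the stretch called the seed.
MIR156E: tGACAGAAgagagtgagcaca
MIR166D: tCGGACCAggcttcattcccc
MIR166G: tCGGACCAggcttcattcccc
MIR169I: tAGCCAAGgatgacttgcctg
MIR172D: aGAATCTTgatgatgctgcag

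MIR166D and MIR166G carry the same mature sequence, and hence the same seed, while the other 3 have seeds of their own. The microRNA miR166 acts on class III HD-ZIP genes, miR172 on AP2-type genes, miR156 on SPL genes and miR169 on genes of the NF-YA family. MIR166G had 587.12 within 1000 bp and 141.14 at 1000 to 2000 bp upstream, and both peaks were shared with KPL, a fertilization gene of the same locus. MIR166D had 382.99 within 1000 bp upstream, 199.53 farther upstream and 76.82 downstream, and the first pair was shared with RUG1. MIR156E had the highest score of the 5, 1558.62 at 1000 to 2000 bp upstream, with 61.43 beyond it (3.94% of the highest), and shared both with AT5G11970.

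MIR172D had 111.7 within 1000 bp and 76.47 at 2000 to 3000 bp upstream, and neither peak belonged to another listed gene. AP2 and TOE3, textbook targets of miR172, were themselves genes with several sites. MIR169I had 62.03 and 81.04, of which the latter was shared with MIR169J. The scores of MIR172D and MIR169I were all below the median peak of 139.67. TASIR-ARF, a locus of the small RNAs that act on ETT and related auxin response factors, had 490.67 at 2000 to 3000 bp and 62.03 at 1000 to 2000 bp upstream, and was chosen after its values were seen. Of these 6 small RNA loci, all had at least 2 upstream peaks and MIR166D alone had a downstream one.

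Receptor genes with several sites included both ERECTA-like kinases. ERL1, which with its relatives governs organ growth and stomatal patterning, was among the genes with 3 scored regions, with 602.34 and 85.33 upstream and 238.21 inside the gene, all of them its own. ERL2 had 690.4 at 1000 to 2000 bp and 60.91 within 1000 bp upstream, and the former was shared with AT5G07190. RLP29, annotated as a leucine-rich repeat protein, had 179.13 inside the gene and 70.0 upstream. CLE27, of the CLAVATA3-like peptide family, had 168.29 upstream and 89.7 downstream. ERL2, RLP29 and CLE27 were chosen after their values were seen.

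Genes of auxin and stress responses outside the lists were also scored in several regions. IAA27, which encodes an Aux/IAA repressor of auxin signalling, had 956.62 within 1000 bp and 65.95 at 1000 to 2000 bp upstream. A peak of 727.94, 636 bp from its highest, fell in an already scored region and so does not appear in the region columns. MYB44, a gene of stress responses, had 701.98 and 182.79 upstream and 71.09 inside the gene. GH3.3, which encodes an auxin-conjugating enzyme, had 329.32 within 1000 bp upstream and 47.91 at 2000 to 3000 bp. AOC4, of jasmonate synthesis, had 415.02 inside the gene and 126.58 downstream. IAA27, MYB44, GH3.3 and AOC4 were chosen after their values were seen.

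Further regulators were chosen after their values were seen. HDG1, an HD-ZIP class IV homeobox gene, had 690.4 inside the gene and 144.72 within 1000 bp upstream, 3866 bp apart. LSH3, a gene of organ boundaries, had 308.23 and 246.27 in the 2 farther upstream regions. ERF12, of the ERF family, had 274.43 and 238.21 in the 2 nearer ones. IDD1, a zinc finger gene, had 301.85 downstream and 236.14 upstream, on either side of the gene. Every scored peak of HDG1 and IDD1 was shared with another listed gene. The sugar transporter gene SWEET1 had 551.99 at 1000 to 2000 bp and 157.66 within 1000 bp upstream. The D-type cyclin gene CYCD1;1 had 179.13 downstream and 51.18 inside the gene, and the expansin gene EXPA10, of cell wall loosening, had 92.19 and 85.33 upstream.

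Other genes with high second scores were less well characterised. AT1G72500, annotated as related to an inter-alpha-trypsin inhibitor heavy chain, had 612.17 inside the gene and 470.7 downstream. MYB95 had 574.51 and 469.06 in the same regions, 695 bp apart, so that both peaks lay at its 3′ part. AT2G08986, of unknown function, had 351.79 inside the gene and 274.56 upstream, 5929 bp apart. EXL4, annotated as phosphate-responsive, had 3 regions with 301.38, 155.91 and 178.6. AT4G19240 (96.1 and 89.7) and AT5G11130 (133.69 and 143.81) had near-equal scores inside the gene and downstream.

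Many peaks of genes with several sites belonged to a neighbour as well. Of 144 genes, 113 (78.5%) shared at least 1 peak with another listed gene, and in 61 genes every scored peak was shared. Among the targets with 1 score 74.1% shared their peak, but the 144 genes had 2 or 3 peaks each that could be shared. The 2 shares are therefore not on equal terms. With each peak given to its nearest target gene only, 65 genes had several sites in place of 148, and AP1, CLV1, FLC, SEP3, SVP and TGA9 were among those that no longer did. The 144 genes formed 112 separate loci, of which 84 held 1 gene, 25 held 2 and 3 held more. In 20 pairs of genes and 1 group of 3, the same set of peaks was counted for each gene. IDD7, a zinc finger gene, and FRUCT5, a gene of fructan breakdown, were such a pair, with 1759.93 and 62.03 (3.52%) in opposite order. AGL6, a floral MADS-box gene, and SAP18 shared 321.1 and 269.46, the former 43 bp upstream of the AGL6 5′ end. Among the 21 listed regulators, 11 had no shared peak.

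The largest such locus held the cold-response genes CBF1, CBF2 and CBF3 with RS40, a splicing factor gene, on chromosome 4 from 13016200 to 13023867. Its 6 peaks scored between 62.03 and 310.26. CBF2 had 181.95, 152.42 and 72.68 at rising distance upstream. CBF3 had 193.9 upstream, 72.68 inside the gene and 152.42 downstream. CBF1 had 310.26 upstream and 193.9 downstream, so that peaks between these neighbours were upstream of one and within or beyond the next. The CBF genes are close copies of one another, and how reads that match several of them were placed is not given. These 4 genes were chosen after their values were seen.

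Another run of peaks, on chromosome 1 between 9568759 and 9592023, was listed for AT1G27550 and AT1G27580, annotated as F-box genes, AT1G27570, of a lipid kinase family, and AT1G27565, of unknown function. AT1G27550 had 1138.4 and 160.72 upstream. AT1G27570 had 434.23 inside the gene and 238.98 and 189.01 upstream, and AT1G27565 had 238.98, 189.01 and 160.72. AT1G27580 had 618.23 inside the gene and 331.18 downstream, and the same 2 scores were listed upstream of AT1G27590. This stretch held 3 of the 5 widest peaks of the whole list, of 7045, 2942 and 1843 bp, and the other 2 were those inside AG and AP1. AT2G33509, AT2G33510 and AT2G33520 were all listed with scores of 162.95 and 89.7, and the first and last of them also with 94.06. AT2G39560, of unknown function, had 129.73 upstream, 82.45 inside the gene and 144.72 downstream.

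Genes with several sites were also described by gene length, annotation, chromosome and peak width. Of these, gene length sets the size of the intragenic region that the rule scored. Whether peak width goes with peak score was not tested. The median gene length was 2318 bp, against 2223 bp for targets with 1 score. A word for transcription or DNA binding stood in the annotation of 33 genes (22.3%), against 11.5% of the targets with 1 score. Outside the MADS-box family, 24 of 221 such annotated targets (10.9%) had several sites, against 13.6% with it. The share of listed genes with several sites ran from 5.22% on chromosome 3 to 10.4% on chromosome 2. The 242 peaks had a median width of 275 bp, against 230 bp for the other peaks in the list.

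The region columns do not show every peak. Within 3000 bp upstream to 1000 bp downstream of the RefSeq spans, 185 of 1903 targets (9.72%) had at least 2 peaks. These included 41 targets outside the 148 genes, with PI, CUC1, ULT1 and AGL15 among them. PI, the partner of AP3, had a further peak of 81.04 at 689 bp from its main one. Of the 144 traced genes, 16 had more peaks than scored regions, and the highest number along 1 gene was 4.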

How the data were processed

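Per the file headers, the deposited peak list gives start, end, width, position and a Poisson score, and the deposited target table the highest score per region. The position and score headers of the peak list are exchanged, and the columns were read by value. Per the submitters' processing notes, coordinates follow TAIR10. The sources used here do not give the aligner, peak caller, threshold or treatment of replicates. No reads or library totals were used, so depth and precision are unknown.

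Region scores were traced to peaks of equal score (within 0.006) around RefSeq gene spans (TAIR10.1, no coordinates printed), allowing gene ends to differ by 1500 bp. Strand was taken from the order of the regions. Of 1958 targets 1916 matched RefSeq, and 144 of 148 members were traced, 118 of them with each position in its listed region. The tracing was checked on simulated peaks, each with a score of its own and placed inside its region. Equal scores and differing gene ends were therefore not covered by the check. All 165 genes of the 8 lists matched.

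The members and lists were chosen with earlier results of these data known. No test was run, since the scores chose the members. By rule, the text names listed members, the 15 highest second scores, 10 genes with 3 regions, microRNA genes and the 5 most and least alike pairs of scores. Neighbours that share a peak with these, and the genes so marked in the text, were chosen after their values were seen. MADS-box genes were found by RefSeq synonyms, plus AG, AP3 and PI. Python 3.11.15, pandas 2.3.3, numpy 2.4.6 and scipy 1.17.1 were used.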

Additional observations from a re-analysis of the deposited data

How the results depend on the processing

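No paired analysis was possible because the deposited tables hold no value per library, and no replicate could be left out for the same reason. With only scores at or above the median peak (139.67), 55 genes had several sites (5.43% of the remaining targets), 4 of them in 3 regions, with a median ratio of 61.1%, a median distance of 1941 bp and 66.7% sharing a peak. At or above the upper quartile (278.78) 13 genes remained (2.55%), 0 with 3 regions, 15.4% with a peak within 1000 bp upstream, a median distance of 2463 bp and 41.7% sharing a peak. These fewer scores follow from the thresholds. The 8 listed regulators among the 13 were AG, AP1, AP2, FD, SEP3, SOC1, SVP and TOE3. With peaks given to the nearest target gene only, 65 of 1151 targets had several sites (5.65%), 5 with 3 regions, and 4 MADS-box genes were left. Of the 65, 53.8% had a peak that was shared before peaks were given to the nearest gene only. All 65, 55 and 13 genes were among the 148. With each set of scores counted once, 126 of 1236 targets had several sites (10.2%), fewer genes than the 148. With any overlap of the whole peak it was 160 of 1671 (9.58%). With positions placed on RefSeq spans, added after the data were seen, it was 151 of 1670 (9.04%). These percentages rest on fewer targets than the 1958 of the main setting. With these last 2 settings, 131 of 160 and 137 of 151 genes were among the 148. Without the 10 widest peaks, 144 remained, and AG, AP1, AT1G27550 and AT1G27580 were lost.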
